A study of Mus musculus with 20 samples.

Results

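The mitochondrial solute carriers of the Slc25 family are membrane proteins, most of them in the inner mitochondrial membrane, where they exchange metabolites between cytosol and matrix, with a few in the outer membrane or in peroxisomes. They move adenine nucleotides, phosphate, carboxylates, amino acids, acylcarnitines, iron and nucleotide cofactors, and in heart they tie fuel oxidation to ATP export. Members were the rows of the table whose symbol is Slc25a followed by a number and whose value was at least 10 in at least 5 of 20 libraries. Of 44 such symbols, 37 passed, among 13548 genes that passed the same filter out of 21705 rows. The choice used the symbol and the level over all libraries, not the difference between groups.

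RNA was sequenced from heart ventricles of male C57Bl/J6 mice in 20 libraries, 5 in each of 4 groups. Acsl1H-/- mice, called knockout here, lack the long-chain acyl-CoA synthetase Acsl1 in heart, and their littermates with the intact floxed gene, Acsl1flox/flox, are called control. Tamoxifen at 75 mg/kg was given on 4 days from 6 to 8 weeks of age to both genotypes, which received rapamycin, an inhibitor of the kinase mTOR, at 1 mg/kg a day or vehicle for 2 weeks. The groups were thus control vehicle, knockout vehicle, control rapamycin and knockout rapamycin, and hearts were taken 2 weeks after tamoxifen. Which Cre driver was used is not stated in the labels, and no group is labelled as carrying a Cre without the floxed gene. The design asks how carrier transcripts differ with the loss of Acsl1, with rapamycin, and whether one depends on the other.

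The acyl groups of acyl-CoA made by Acsl1 enter mitochondria as acylcarnitine through Slc25a20. The family thus holds a later step on the path of the enzyme that was removed, not the one directly after it. The aspartate/glutamate carriers Slc25a12 (aralar) and Slc25a13 (citrin) bring the reducing equivalents of glycolytic NADH into the matrix through the malate-aspartate shuttle, together with the oxoglutarate carrier Slc25a11. The ADP/ATP carriers Slc25a4 and Slc25a5 and the phosphate carrier Slc25a3 supply ATP synthase with its substrates and export its product.

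The first sequences are the 250 bases before the start of Slc25a13 (Entrez 50799) and of its paralog Slc25a12 (Entrez 78830), shown because the pair does the same exchange and Slc25a13 was the member that passed the test below. The sequence of Slc25a33 (Entrez 70556) is shown because its level varied widely between libraries. They are from RefSeq on build GRCm38.p6, 5′ to 3′ on the minus strand of the genome, at chr6:6217174-6217423 for Slc25a13, chr2:71367756-71368005 for Slc25a12 and chr4:149774268-149774517 for Slc25a33. Capitals mark an E-box (CACGTG) or a GC box (GGGCGG, here as its reverse complement CCGCCC).
Slc25a13: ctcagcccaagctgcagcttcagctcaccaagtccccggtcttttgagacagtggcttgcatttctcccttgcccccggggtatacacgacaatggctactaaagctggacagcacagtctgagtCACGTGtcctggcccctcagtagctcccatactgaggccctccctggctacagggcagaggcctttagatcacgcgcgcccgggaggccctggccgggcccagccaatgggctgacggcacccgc
Slc25a12: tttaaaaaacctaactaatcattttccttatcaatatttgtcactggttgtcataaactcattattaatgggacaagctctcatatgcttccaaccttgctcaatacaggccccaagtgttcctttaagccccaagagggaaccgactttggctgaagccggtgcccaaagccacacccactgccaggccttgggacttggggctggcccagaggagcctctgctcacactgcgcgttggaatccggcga
Slc25a33: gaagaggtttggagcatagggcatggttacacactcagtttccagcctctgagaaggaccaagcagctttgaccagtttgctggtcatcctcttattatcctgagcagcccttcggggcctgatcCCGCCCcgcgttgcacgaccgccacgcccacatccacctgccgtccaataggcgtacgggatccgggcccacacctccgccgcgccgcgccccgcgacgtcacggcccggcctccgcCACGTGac
The Slc25a13 window holds an E-box that begins 125 bases before the start, the Slc25a33 window holds one that begins 8 bases before it and a GC box that begins 125 bases before it, and the Slc25a12 window holds none of the motifs searched. Of the 37 members, 29 were found in the RefSeq promoter table. An E-box on either strand stood in 6 of 29 member windows (20.7%), against 6.86% of windows of 27025 genes, and the GC box in 22 of 29 (75.9%), against 35.4%. The 27025 genes were not filtered by level in heart, as the members were, so the 2 sets are unlike. The cyclic-AMP element TGACGTCA was found in 2 members (6.90%, against 1.77% of all), AAGGTCA in 1 (3.45%, against 4.70%), and the palindromic NRF1 consensus and GCCATNTTG in 0 (against 0.877% and 1.54%). No motif in this search contains another, and both strands were searched. These are matches of letters, not sites of binding.

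Expression is given as the deposited normalized value per gene, in which every library has the same upper quartile. Changes are on the log2(value + 1) scale with their 95% confidence interval, and a gene is called where its limma p, adjusted over all 13548 genes, is under 0.05. The implied depth was 11.5 to 21.1 M reads per library (median 15.2 M), so a member such as Slc25a13 rested on 2151 to 5539 implied reads and the lowest, Slc25a27, on 8 to 31. Acsl1 itself lay between 6373 and 16661 in the 10 control libraries and between 631 and 1950 in the 10 knockout libraries, lower in every knockout library. Libraries 1 and 3 of control vehicle stood apart. Their long-minus-short score, the mean log2 deviation of genes with the longest transcripts minus that of genes with the shortest, was -0.98 and -1.08, against -0.42 to 0.53 in the other 18 libraries. Member transcripts are short, with a median of 2220 bases against 2932 for all tested genes, and 17 of 37 members had their highest value in one of these libraries. Most differences of named genes that rest on control vehicle are therefore given with and without these libraries. Group means, confidence intervals, marker sums, class counts and counts of groups that do not overlap are given with all libraries. In bulk tissue, fewer cells of a type and less RNA per cell cannot be told apart.

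By level, the family in heart was made up largely of ATP and phosphate transport. Levels between genes are compared as the normalized value per kb of transcript, as the median over 20 libraries. Slc25a4, the ADP/ATP carrier of heart and muscle, was highest at 106128 per kb, followed by Slc25a3 at 34737, Slc25a11 at 11884 and Slc25a5, the other ADP/ATP carrier, at 8251. Slc25a20, the carnitine/acylcarnitine carrier, came next at 4400, ahead of the glutathione carrier Slc25a39 at 2906 and the orphan carrier Slc25a34 at 2108. Slc25a13 (1517) stood just above Slc25a12 (1182), so both aspartate/glutamate carriers were present in ventricle. Their order rests on annotated transcript lengths of 3121 and 6351 bases. Before division by length the median was lower for Slc25a13 (4735) than for Slc25a12 (7509). The lowest were the brain-type uncoupling-protein-like carriers Slc25a27 (10.1) and Slc25a14 (26.5).

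**Figure D1:**
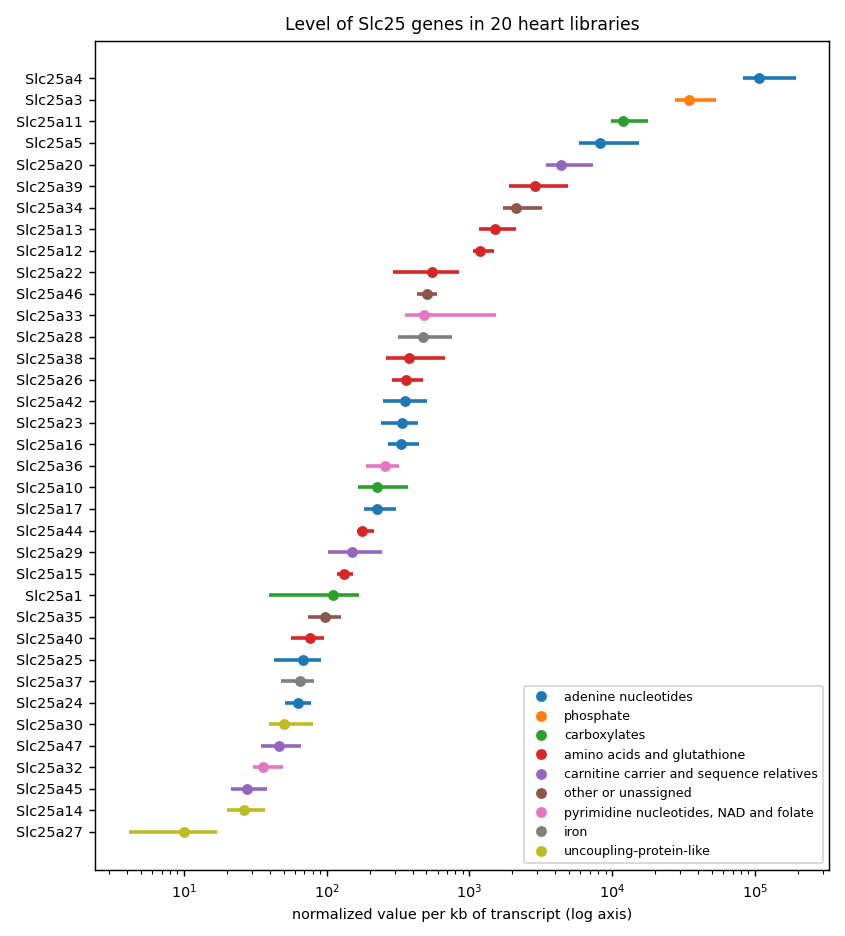
The normalized value per kb of transcript (log axis) is plotted for 36 of the 37 Slc25 genes, with a point at the median of 20 libraries, a line from the lowest to the highest library, and colour for the substrate class. Slc25a4 stands at the top at 106128 and Slc25a27 at the bottom at 10.1.

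Summed per kb over the members, 8 carriers of adenine nucleotides held 64.6% of the family's level, the phosphate carrier 19.4%, 3 carboxylate carriers 6.82%, 9 carriers of amino acids and glutathione 4.06%, and the carnitine carrier Slc25a20 with its 3 relatives by sequence (Slc25a29, Slc25a45 and Slc25a47) 2.58%. Slc25a29 is placed with these relatives although it carries basic amino acids. The remaining classes were small. Carriers with no class assigned (3) held 1.51%, those of pyrimidine nucleotides, NAD and folate (4) 0.636%, the iron carriers (2) 0.300% and the uncoupling-protein-like carriers (3) 0.0486%. The share of Slc25a4 was 60.2% ± 2.34 in control vehicle, 58.0% ± 1.49 in knockout vehicle, 60.7% ± 1.58 in control rapamycin and 61.2% ± 2.43 in knockout rapamycin (SD, n = 5). These shares overlapped between all groups. The 7 symbols that did not pass were Slc25a2, Slc25a18, Slc25a21, Slc25a31, Slc25a41, Slc25a43 and Slc25a48. The highest of them in any library was Slc25a31, the germline ADP/ATP carrier, at 13.9, with 3 libraries at 10 or more.

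Rapamycin, averaged over the genotypes, lowered 1 member, Slc25a13, and no other member passed the test. Citrin is the calcium-responsive aspartate/glutamate carrier best known from liver, where its human deficiency causes citrullinemia. The paralog Slc25a12, the form usually named for heart and brain, carries the same exchange and differed less. Across the family, 1 of 37 members was called lower, beside 0.103% of all genes called lower and 0.125% called in either direction.

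In vehicle hearts, Slc25a13 read 5259, 6566, 6107, 4463 and 5691 in libraries 1 to 5 of control and 5762, 6225, 6588, 5943 and 5294 in knockout. In rapamycin hearts it read 4673, 3672, 4257, 4548 and 3827 in control and 4534, 4209, 4486, 4319.6 and 4798 in knockout. Vehicle libraries lay between 4463 and 6588 and rapamycin libraries between 3672 and 4798. Only control vehicle library 4, at 4463, lay inside the rapamycin range. The mean was 5790 ± 654 with vehicle and 4332 ± 358 with rapamycin (SD, n = 10 each), 74.8% of the vehicle mean. Slc25a13 thus fell by 0.41 on the log2 scale (95% interval -0.57 to -0.26, SE 0.073, adjusted p = 0.0402 by limma with Benjamini-Hochberg adjustment over 13548 genes).

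The change was of the same size in both genotypes, at -0.41 (-0.63 to -0.20) each, but neither passed on its own, with adjusted p = 0.326 in control and 0.201 in knockout by limma. The difference between them was 0.00 (-0.30 to 0.31), and Slc25a13 itself did not pass between genotypes, at 0.09 (-0.12 to 0.31) with vehicle, or 0.11 without control vehicle libraries 1 and 3. Within pools 1 to 4, as the labels number them, the difference with rapamycin was -0.25, -0.57, -0.46 and -0.48. It was therefore negative in all pools and smallest in pool 1. The call was lost with pool as a term (-0.42, adjusted p = 0.0878, with 0 of all genes called), with the replicate number as a block (-0.41, adjusted p = 0.0662, with 5 called), without control vehicle libraries 1 and 3 (-0.41, adjusted p = 0.0883, with 4 called), and in 13 of 20 fits that left out 1 library (log2 change -0.45 to -0.38, adjusted p 0.0130 to 0.0818). It was kept when the library left out was 4 or 5 of control vehicle, 3 or 5 of knockout vehicle, 1 or 4 of control rapamycin, or 5 of knockout rapamycin, and in 8 of the 11 other alternatives.

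**Figure D2:**
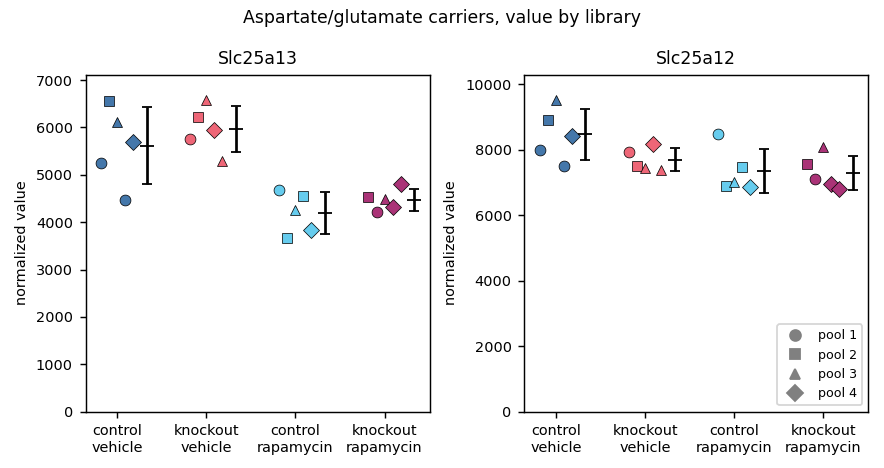
The normalized value of Slc25a13 (left) and Slc25a12 (right) is plotted by library in the 4 groups, with the pool as the marker shape and the mean ± SD of 5 libraries as a bar. For Slc25a13 the rapamycin libraries lie between 3672 and 4798, below all vehicle libraries but 1.

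Slc25a12 read 7975, 8897, 9529, 7508 and 8415 in control vehicle and 7939, 7510.0, 7433, 8180.0 and 7388 in knockout vehicle. With rapamycin it read 8464, 6892, 7018, 7467 and 6854 in control and 7570.1, 7102, 8067, 6950.2 and 6789 in knockout. The ranges overlapped widely, and the difference of -0.14 (-0.27 to -0.01) did not pass (adjusted p = 0.483 by limma), and was -0.13 without control vehicle libraries 1 and 3. The difference between the 2 paralogs was not tested.

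At an unadjusted p under 0.05, 4 of 37 members (all lower) stood out with rapamycin averaged over genotype, beside 9.23% of all genes. They included both aspartate/glutamate carriers and Slc25a17, the peroxisomal carrier of CoA and adenine nucleotides. Slc25a17 read 525, 408, 492, 396 and 415 in control vehicle hearts, 401, 416, 326, 452 and 458 in knockout vehicle hearts, 370.1, 420.1, 355, 379.9 and 315 in control rapamycin hearts, and 375, 376, 357, 328 and 377 in knockout rapamycin hearts. Its highest values were control vehicle libraries 1 and 3, and the difference with rapamycin was -0.22 (-0.39 to -0.06, adjusted p = 0.371 by limma), or -0.16 without those libraries. Without them, 2 of 37 members had an unadjusted p under 0.05, beside 6.99% of all genes.

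The median change of the members with rapamycin was -0.06, beside 0.04 over all genes, and 11 of 37 were above 0. By class, 1 of 9 amino acid and glutathione carriers was above 0, with a median of -0.07, and 4 of 8 adenine nucleotide carriers, with a median of 0.01. None of the 3 uncoupling-protein-like carriers and 1 of 3 carboxylate carriers were above 0. The rapamycin and vehicle libraries overlapped for every member, beside 0.0369% of all genes without overlap.

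Under vehicle, no member passed the threshold between knockout and control by limma, beside 0.244% of all genes called. The smallest p-values belonged to members that were lower in knockout: Slc25a29, a carrier of basic amino acids related to the carnitine carrier, Slc25a39, the glutathione carrier, and Slc25a28, mitoferrin 2, which brings iron into the matrix. Their differences were -0.55, -0.61 and -0.51 on the log2 scale. Slc25a20, which carries the acylcarnitine that Acsl1 products become, differed by -0.14 (-0.48 to 0.20), and by 0.10 without control vehicle libraries 1 and 3.

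Slc25a29 (Entrez 214663) read 482, 296, 383, 361 and 267 in control vehicle and 217, 201, 284, 222 and 284 in knockout vehicle. With rapamycin it read 314, 344, 379, 290.5 and 304 in control and 298, 362, 292, 306 and 250.0 in knockout. The 3 lowest values were in knockout vehicle, and control vehicle overlapped it through library 5 at 267. Between the vehicle groups the difference was -0.55 (-0.86 to -0.23, SE 0.15, adjusted p = 0.0862 by limma), and within pools 1 to 4 it was -0.94, -0.56, -0.43 and -0.27. Without control vehicle libraries 1 and 3 it was -0.35 (adjusted p = 0.697 by limma).

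Slc25a39 (Entrez 68066) read 8201, 5363, 8223, 5519 and 5032 in control vehicle and 4904, 3376, 3185, 4016 and 5721 in knockout vehicle. With rapamycin it read 4665, 5599, 4917, 3741 and 4889.7 in control and 4339, 3951, 4546, 5062 and 3689.8 in knockout. Libraries 1 and 3 of control vehicle were the highest of all 20, and knockout vehicle library 5 overlapped the other control libraries. Knockout minus control under vehicle was -0.61 (-0.97 to -0.25, SE 0.17, adjusted p = 0.0873 by limma), and within pools 1 to 4 it was -0.46, -0.67, -0.95 and -0.33. Without libraries 1 and 3 of control vehicle it was -0.36 (adjusted p = 0.730 by limma), and with the long-minus-short score as a covariate -0.22.

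Slc25a39, Slc25a38 (a glycine carrier) and Slc25a37 (mitoferrin 1) also serve heme synthesis in red cell precursors, and erythroid markers differed between these groups. The summed value of the 7 of 9 listed erythroid genes in the table was 60627 to 155213 in control vehicle and 13541 to 46580 in knockout vehicle, with no overlap, and 38869 to 100777 and 29718 to 104675 in control and knockout rapamycin. The part of erythroid RNA in the Slc25a39 values was not tested. Slc25a38 was 839.8 ± 276 in control vehicle and 688 ± 62.6 in knockout vehicle (SD, n = 5), a difference of -0.23 (-0.62 to 0.16), which was 0.09 without control vehicle libraries 1 and 3. Slc25a37 read 237, 316, 343, 201 and 253 in control vehicle hearts, 269, 336, 284, 295 and 204 in knockout vehicle hearts, 264, 294, 275, 292 and 326 in control rapamycin hearts, and 218, 242, 222, 227 and 277 in knockout rapamycin hearts. It overlapped between the vehicle groups, with a difference of 0.05 (-0.26 to 0.36), which was -0.09 under quantile normalization and 0.12 without those libraries.

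Slc25a28 (Entrez 246696) read 853, 844, 1093, 686 and 644 in control vehicle and 573, 487, 525, 501 and 811 in knockout vehicle. With rapamycin it read 807, 985, 737, 502 and 714 in control and 985, 700.1, 997, 1167 and 693 in knockout. Knockout vehicle was low except for library 5 at 811, and knockout rapamycin held the highest single value, 1167. The difference under vehicle was -0.51 (-0.91 to -0.10, adjusted p = 0.110 by limma), or -0.34 without control vehicle libraries 1 and 3, and -0.13 with the long-minus-short score as a covariate. Leaving out library 5 of control vehicle, or library 5 of knockout vehicle, brought Slc25a28 (-0.59 and -0.64), Slc25a29 (-0.65 and -0.61) and Slc25a39 (-0.69 and -0.73) past the threshold, with adjusted p between 0.0304 and 0.0449 by limma. These fits called 22.8% and 18.9% of all genes, against 0.244% with all libraries, so the 3 of 37 members were a smaller share than that of all genes.

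**Figure D3:**
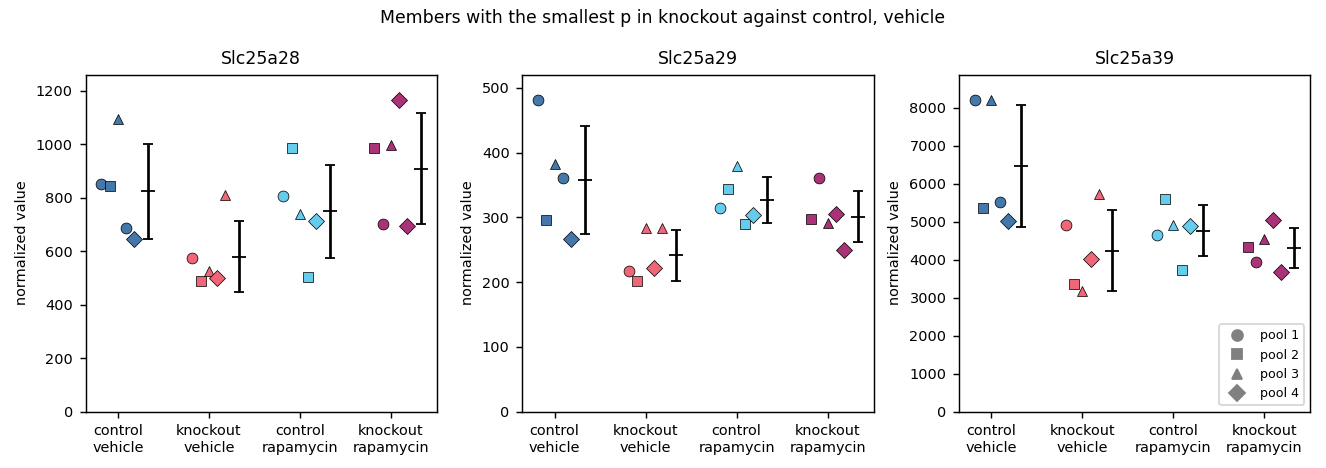
The normalized values of Slc25a28, Slc25a29 and Slc25a39 are plotted by library in the 4 groups, with the pool as the marker shape and the mean ± SD of 5 libraries as a bar. Knockout vehicle has the lowest mean of the 4 groups for each gene, and its range overlaps that of control vehicle.

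At an unadjusted p under 0.05, 4 of 37 members stood out, all lower in knockout, beside 31.8% of all genes. There were 3, beside 6.75% of all genes, without control vehicle libraries 1 and 3. The fourth was Slc25a33, the pyrimidine nucleotide carrier that responds to insulin and growth signals in cultured cells. Slc25a33 read 1205, 1991, 2923, 881 and 1084 in control vehicle and 754, 689, 1348, 876 and 1182 in knockout vehicle. With rapamycin it read 1432, 1186, 787, 833 and 731 in control and 819.6, 669, 935, 974 and 883 in knockout. The values of control vehicle spread from 881 to 2923, and 7 of the 15 libraries of the other groups lay inside that range and 8 below it. Between the vehicle groups the difference was -0.64 (-1.21 to -0.07, adjusted p = 0.128 by limma), or -0.40 without control vehicle libraries 1 and 3. A predicted antisense gene, Gm13068, covers 14.9% of its exon bases, and whether the counting used strand is not stated.

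The libraries high in Slc25a33 were the ones low in Ucp3, the uncoupling protein of muscle and a family member under another symbol, a pairing chosen after the values were seen. The 5 libraries highest in Slc25a33 were 1, 2 and 3 of control vehicle, 3 of knockout vehicle and 1 of control rapamycin. They lay between 1205 and 2923 in Slc25a33, against 669 to 1186 in the other 15, and between 955 and 1592 in Ucp3, against 1652 to 6115. They held 4 of the 5 lowest values in Slc25a22, a glutamate carrier, and 4 of the 5 highest in Slc25a30, with library 3 of knockout vehicle next in order in both. They also held 4 of the 5 lowest values in Slc25a1, the citrate carrier, but control vehicle library 1 was at the other end, with rank 2 from the top at 248. The labels number these libraries 4 to 8 in a row, over 3 pools and 3 groups. What this number stands for is not stated in the labels, and its relation to these values was not tested.

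**Figure D4:**
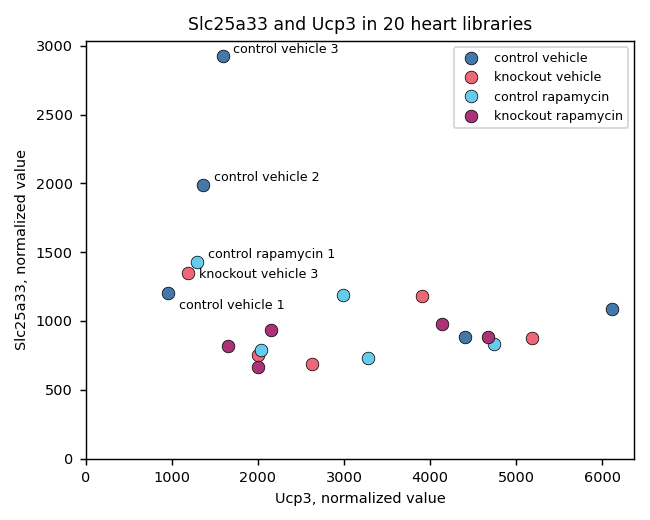
The normalized value of Slc25a33 is plotted against that of Ucp3 in 20 libraries, coloured by group, with the 5 libraries highest in Slc25a33 named. These 5 lie between 1205 and 2923 in Slc25a33 and between 955 and 1592 in Ucp3, and all other libraries lie at 1652 or more in Ucp3.

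The abundant carriers of ATP synthesis overlapped between genotypes. Slc25a4 read 301804, 202048, 373575, 206545 and 189836 in control vehicle hearts, 209326, 159249, 170125, 185599 and 247216 in knockout vehicle hearts, 239129, 249789, 191911, 166948 and 201180.0 in control rapamycin hearts, and 258226, 176165, 233498, 250268 and 173126 in knockout rapamycin hearts. Its lowest value was knockout vehicle library 2, and its highest were libraries 1 and 3 of control vehicle. Knockout minus control under vehicle was -0.36 (-0.76 to 0.05, adjusted p = 0.203 by limma). It was -0.05 without control vehicle libraries 1 and 3, and 0.05 with the long-minus-short score as a covariate.

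Slc25a3 read 73819, 60208, 85664, 58651 and 50369 in control vehicle hearts, 55846, 46304, 48068, 55765 and 64196 in knockout vehicle hearts, 60249, 60239.5, 54982, 44459.9 and 50049.8 in control rapamycin hearts, and 58558, 47474, 58077, 56146 and 45789 in knockout rapamycin hearts. Libraries 1 and 3 of control vehicle were again the highest. The difference under vehicle was -0.27 (-0.57 to 0.03, adjusted p = 0.194 by limma), or -0.07 without those libraries and 0.02 with the covariate. Slc25a5 read 17516, 9893, 19281, 11295 and 8529.8 in control vehicle hearts, 12826, 9016, 9159, 9499.7 and 15052 in knockout vehicle hearts, 11489.7, 11229, 9048, 7309 and 9573 in control rapamycin hearts, and 10570.2, 9011, 11460.5, 10881 and 8629.5 in knockout rapamycin hearts. The difference was -0.22 (-0.65 to 0.21), or 0.14 without those libraries and 0.25 with the covariate. Of the 50-base stretches of Slc25a5, 33.8% are shared with other genes, so its values are less certain than those of its paralog.

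Slc25a11, the oxoglutarate/malate carrier, read 24306, 20779, 30473, 20645 and 19151 in control vehicle hearts, 20747, 18142, 18225, 19643 and 23187 in knockout vehicle hearts, 21071, 20314, 19622, 16809.5 and 18616 in control rapamycin hearts, and 21899, 17296, 22105, 20352 and 18423 in knockout rapamycin hearts. The groups overlapped, and the difference under vehicle was -0.19 (-0.45 to 0.06), or -0.02 without control vehicle libraries 1 and 3 and 0.04 with the covariate. Slc25a20 (Entrez 57279) read 9442, 7629, 13042, 7317 and 7151 in control vehicle hearts, 8061, 6858, 7292, 8186 and 9263 in knockout vehicle hearts, 9065, 8637, 6609, 6164 and 6936 in control rapamycin hearts, and 8848, 7132, 10837, 9332 and 7282 in knockout rapamycin hearts. Control vehicle library 3, at 13042, was the highest, and the 4 groups overlapped. The difference of -0.14 under vehicle was 0.10 without control vehicle libraries 1 and 3 and 0.18 with the covariate. As a share of the family's summed level per kb, Slc25a20 held 2.09% to 2.41% in control vehicle and 2.43% to 2.72% in knockout vehicle, which did not overlap. The vehicle groups' shares did not overlap for 3 of 37 members, the others being Slc25a39 (1.591% to 1.925% in control and 1.225% to 1.587% in knockout) and Slc25a45 (0.00988% to 0.0145% and 0.0150% to 0.0263%). Under rapamycin the shares were 2.19% to 2.52% in control and 2.36% to 3.05% in knockout, which did, as they did for all 37 members. These shares are a description, since they divide by the sum of all 37 members, of which Slc25a4 is the largest part. They have no counterpart over all genes, and were not computed without control vehicle libraries 1 and 3. Slc25a45 rested on 27 to 76 implied reads.

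No member above 0 in knockout under vehicle passed the test. Slc25a42, the carrier of CoA, read 897, 979, 961, 1271 and 1149 in control vehicle hearts, 1129, 1512, 1115, 1609 and 1133 in knockout vehicle hearts, 794, 1145, 1217, 1554 and 1037 in control rapamycin hearts, and 1199.7, 1036, 876, 890.0 and 1141 in knockout rapamycin hearts. Between the vehicle groups the difference was 0.30 (-0.04 to 0.63, adjusted p = 0.197 by limma), or 0.19 without control vehicle libraries 1 and 3. Slc25a34 read 5286, 5324, 6812, 4656 and 6861 in control vehicle hearts, 4964, 6156, 8612, 6917 and 5607 in knockout vehicle hearts, 5059.8, 5649, 4713, 5762 and 5423 in control rapamycin hearts, and 4999, 4582, 6117, 7371 and 8594 in knockout rapamycin hearts. Its difference was 0.15 (-0.20 to 0.50), or 0.19 without those libraries, with values up to 8612 in knockout vehicle and 8594 in knockout rapamycin. Slc25a25, a calcium-dependent ATP-Mg/phosphate carrier, read 225, 212, 148, 299.8 and 142 in control vehicle hearts, 207, 236, 294, 178 and 246 in knockout vehicle hearts, 237, 202, 285, 205 and 226 in control rapamycin hearts, and 183, 207, 269.8, 263 and 278 in knockout rapamycin hearts. Its difference was 0.21 (-0.19 to 0.61), or 0.14 without those libraries and -0.00 with robust variances and array weights.

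**Figure D5:**
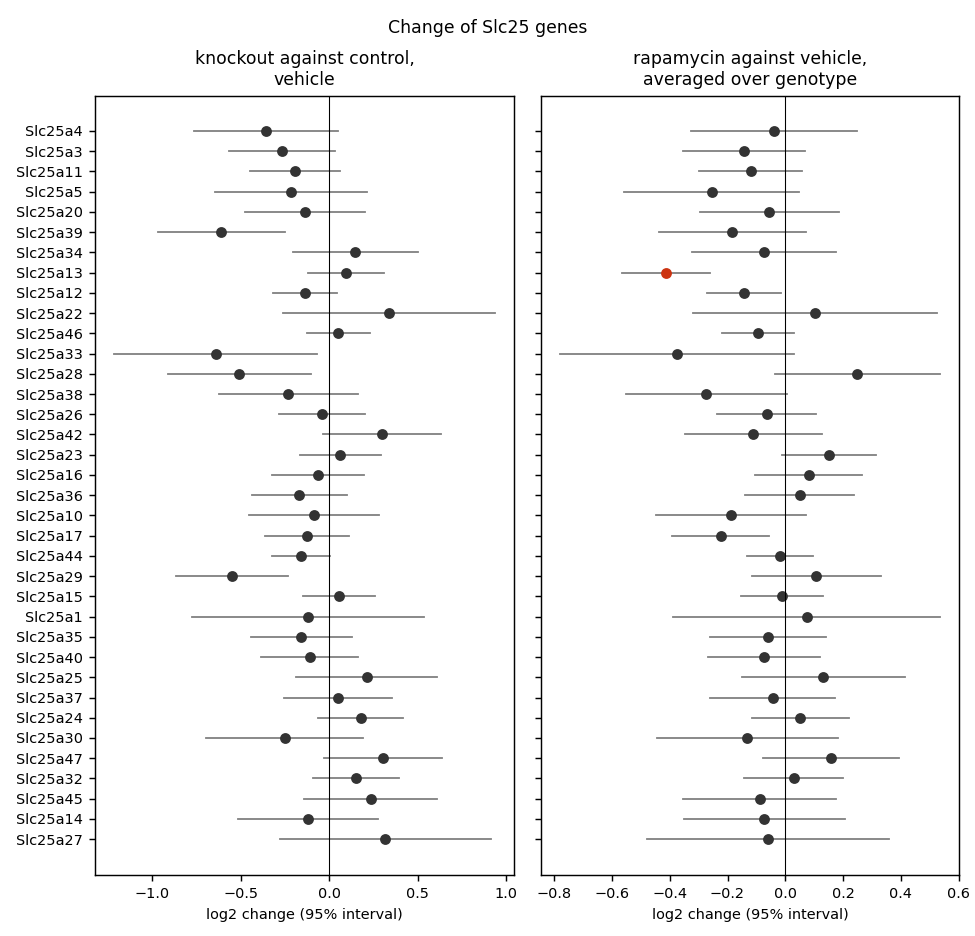
The log2 change with its 95% interval is plotted for 36 of the 37 Slc25 genes, ordered by level, for knockout against control under vehicle (left) and for rapamycin against vehicle averaged over genotype (right); the horizontal scales differ. Slc25a13 at -0.41, in red on the right, is the point with an adjusted p under 0.05.

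The median member change under vehicle was -0.12, beside 0.07 over all genes, with 14 of 37 members above 0. It was 0.04 without control vehicle libraries 1 and 3 and 0.05 with the covariate. By class, 4 of 8 adenine nucleotide carriers, 3 of 9 amino acid and glutathione carriers, 2 of 4 of the carnitine carrier and its relatives and none of 3 carboxylate carriers were above 0. For 2 members, Slc25a24 (higher in knockout) and Slc25a44 (lower), the vehicle groups did not overlap, beside 2.32% of all genes. Slc25a24, another calcium-dependent ATP-Mg/phosphate carrier, read 214, 208, 179, 207 and 213 in control vehicle hearts, 266, 216, 227, 218 and 230.1 in knockout vehicle hearts, 226, 248, 209, 256 and 247 in control rapamycin hearts, and 208, 268, 204, 175 and 223 in knockout rapamycin hearts. The separation rested on 216 in knockout against 214 in control, and the difference was 0.18 (-0.06 to 0.42), or 0.14 without control vehicle libraries 1 and 3. Slc25a44, the branched-chain amino acid carrier, was 673 ± 49.7 in control vehicle and 602 ± 20.9 in knockout vehicle (SD, n = 5), a difference of -0.16 (-0.32 to 0.01), or -0.15 without those libraries.

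Averaged over vehicle and rapamycin, no member was called between genotypes, beside 0.443% of all genes. At an unadjusted p under 0.05 there were 5 of 37, beside 19.1% of all genes. Slc25a29 (-0.33, -0.56 to -0.11), Slc25a39 (-0.37, -0.63 to -0.12), Slc25a26 (-0.19) and Slc25a33 (-0.41) were lower in knockout and Slc25a32, the folate carrier, was higher (0.22, 0.04 to 0.39). Without control vehicle libraries 1 and 3 these differences were -0.24, -0.25, -0.11, -0.29 and 0.21, and 3 of 37 members had an unadjusted p under 0.05, beside 7.48% of all genes. The smallest adjusted p among them was 0.172 by limma, and the 10 knockout libraries overlapped the 10 control libraries for every member, beside 0.0295% of all genes without overlap.

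Between knockout and control hearts given rapamycin, no member passed the threshold, beside 0.0221% of all genes. Slc25a26, which brings S-adenosylmethionine into the matrix for methylation, had the smallest p and was the member whose groups did not overlap, beside 0.878% of all genes. It read 768, 562, 908, 748 and 583 in control vehicle hearts, 707, 652, 668, 628 and 768 in knockout vehicle hearts, 726, 755, 761, 702 and 783 in control rapamycin hearts, and 556, 573, 556, 688 and 584 in knockout rapamycin hearts. Control rapamycin lay between 702 and 783 and knockout rapamycin between 556 and 688. The means were 745 ± 31.8 and 591 ± 55.2 (SD, n = 5), a difference of -0.34 (-0.58 to -0.09, adjusted p = 0.9996 by limma), while under vehicle it was -0.04 (-0.28 to 0.20). The interaction for Slc25a26 was -0.30 (-0.64 to 0.05). These last values were 0.13 and -0.46 without control vehicle libraries 1 and 3.

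Slc25a32 read 194, 214, 209, 183 and 215 in control vehicle hearts, 208, 228, 294, 212 and 196 in knockout vehicle hearts, 213, 185, 196, 214 and 181 in control rapamycin hearts, and 231, 274, 249, 208 and 243 in knockout rapamycin hearts. It was higher in knockout rapamycin than in control rapamycin by 0.28 (0.04 to 0.52), with library 4 of knockout inside the control range. Together with Slc25a26 it made up the 2 of 37 members with an unadjusted p under 0.05, beside 2.97% of all genes. Slc25a37 differed by -0.29 (-0.60 to 0.01) between the same groups. The median over the members was -0.01, beside -0.02 over all genes, and the carboxylate carriers, all 3 above 0, differed by 0.05 to 0.15.

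In control hearts alone, rapamycin changed no member past the threshold, beside 0% of all genes. At an unadjusted p under 0.05, 8 of 37 members stood out, beside 14.9% of all genes. The 6 that were lower included Slc25a12 (-0.21), Slc25a13 (-0.41), Slc25a17 (-0.28), Slc25a33 (-0.61) and Slc25a39 (-0.42). The 2 that were higher were Slc25a23 (0.27), an ATP-Mg/phosphate carrier, and Slc25a47 (0.34). This comparison shares the control vehicle libraries with the knockout comparison under vehicle, so their values are not independent. Without control vehicle libraries 1 and 3, the difference was -0.17 for Slc25a12, -0.40 for Slc25a13, -0.15 for Slc25a17, -0.37 for Slc25a33, -0.17 for Slc25a39, 0.26 for Slc25a23 and 0.32 for Slc25a47, and 2 of 37 members had an unadjusted p under 0.05, beside 3.5% of all genes. The 2 control groups overlapped for every member, beside 1.46% of all genes without overlap.

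In knockout hearts alone, rapamycin changed no member past the threshold either, beside 0.00738% of all genes. Slc25a13 was the member whose groups did not overlap, with 5294 to 6588 under vehicle and 4209 to 4798 under rapamycin, beside 1.85% of all genes without overlap. At an unadjusted p under 0.05 there were 3 of 37 members, beside 5.71% of all genes: Slc25a13 lower, and Slc25a28 (0.64, 0.24 to 1.05) and Slc25a29 (0.32, 0.01 to 0.64) higher with rapamycin. For Slc25a28 the mean was 579.5 ± 134 with vehicle and 908 ± 206 with rapamycin (SD, n = 5), with adjusted p = 0.404 by limma and within-pool differences of 0.29, 1.02, 0.61 and 0.84. Slc25a13 and Slc25a28 passed with the long-minus-short score as a covariate (-0.41 and 0.62, adjusted p = 0.0208 and 0.00924 by limma), and with robust variances and array weights (-0.42 and 0.70, adjusted p = 0.0425 and 0.0473 by limma). Those fits called 1.73% and 0.428% of all genes.

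Whether rapamycin altered the effect of Acsl1 loss is the interaction, and no member passed, beside 0% of all genes. Slc25a28 had the largest, at 0.79 (0.22 to 1.36, adjusted p = 0.523 by limma), and was the 1 of 37 members with an unadjusted p under 0.05, beside 8.3% of all genes. Knockout was below control by 0.51 under vehicle and above it by 0.28 under rapamycin. For Slc25a29 the interaction was 0.43 (-0.02 to 0.88), for Slc25a39 0.47 (-0.04 to 0.98) and for Slc25a24 -0.32 (-0.66 to 0.01). Without control vehicle libraries 1 and 3 the interaction was 0.62 for Slc25a28, 0.23 for Slc25a29, 0.22 for Slc25a39 and -0.29 for Slc25a24, and 2 of 37 members had an unadjusted p under 0.05, beside 3.56% of all genes. The member median was 0.13, beside -0.09 over all genes, and -0.02 without those libraries.

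Other genes of transport into mitochondria, 34 tested of 35 listed, gave no call in any of the 7 comparisons. The list held uncoupling proteins and other family members under other symbols, the pyruvate carrier, the calcium uniporter, outer-membrane channels, sideroflexins, ABC exporters and the TIM22 route by which carriers are imported. Between genotypes at an unadjusted p under 0.05 there were 8 under vehicle (beside 31.8% of all genes), 0 under rapamycin (2.97%) and 3 averaged over drug (19.1%). For rapamycin there were 2 in control (14.9%), 1 in knockout (5.71%) and 3 averaged over genotype (9.23%), and for the interaction 3 (8.3%). The 8 under vehicle became 4, beside 6.75% of all genes, without control vehicle libraries 1 and 3. The medians were -0.13 for genotype under vehicle and -0.08 for rapamycin averaged over genotype, near those of the members, and -0.01 and -0.02 without those libraries.

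Among them, Efha1 (Micu2), a gatekeeper of the calcium uniporter, was 1812 ± 408 in control vehicle and 2589 ± 432 in knockout vehicle (SD, n = 5), a difference of 0.53 (0.22 to 0.84, adjusted p = 0.0873 by limma), or 0.30 without control vehicle libraries 1 and 3. Tomm70a, the outer-membrane receptor for carrier precursors, differed by 0.30 (0.12 to 0.48, adjusted p = 0.0887 by limma), or 0.26 without them. Agk, a subunit of the TIM22 complex, differed by 0.34 between knockout and control under vehicle, with and without those libraries, and by -0.35 with rapamycin in knockout, and passed neither test. The pyruvate carrier subunits Brp44l (Mpc1) and Brp44 (Mpc2) were at -0.64 and -0.53 under vehicle, or -0.21 and -0.14 without those libraries, with control vehicle values of Brp44l from 17587 to 46367. With rapamycin averaged over genotype, Ucp2 was at -0.30 (adjusted p = 0.440 by limma), or -0.31 without them. Ucp1, the brown fat uncoupling protein, lay between 0 and 1.73.

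Markers of other cells were present in all groups. Summed cardiomyocyte markers (6 of 6 genes) lay between 1149740 and 1524800 over the 20 libraries, a sum whose genes went both ways. From control vehicle to knockout vehicle, the means of Myh6 (414311 and 620000), Tnnt2 (107139 and 139694) and Ryr2 (27664 and 40368) were higher. Those of Tnni3 (203784 and 134524), Actc1 (381272 and 327473) and Pln (171016 and 166430) were lower, and the ranges overlapped for each gene. Fibroblast markers (6 of 6) lay between 20748 and 26748 in control vehicle and between 25227 and 52403 in knockout vehicle. Atrial markers (4 of 4) ranged from 1358 to 6054 in control vehicle and from 4141 to 61871 in knockout vehicle. Under vehicle, only library 3 of knockout, at 4141, lay inside the control range. With rapamycin the atrial markers ranged from 1521 to 34775 in control and from 8103 to 57803 in knockout, so high values occurred in both genotypes there. Adipocyte markers (5 of 5 in the table, 1 below 10 in every library) ranged from 630 to 1773, a sum made up mostly of Cidea. Cidea had means of 932 in control vehicle and 844 in knockout vehicle. The means of Adipoq (11.5 and 36.1), Cfd (44.4 and 176) and Plin1 (7.02 and 14.4) were higher in knockout vehicle, with ranges that overlapped. The part of these cells in the member values was not tested.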

How the data were processed

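Poly(A) RNA libraries from 20 mouse heart ventricles were analysed, 5 per group, with groups taken from the sample titles. Per the submitters' processing notes, the authors used mouse build mm9, Picard 1.64, SAMtools and RSEM. Aligner and strand setting were not given in the sources used here. Deposited values are RSEM gene estimates that the authors scaled to a common upper quartile, a normalized signal and not counts. Steps of the low values imply the depth, and 87.8% to 89.4% of them were whole reads within 0.05, too few to recover reads. Genes at 10 or more in at least 5 of 20 libraries (13548) were fitted as log2(value + 1) with limma 3.58.1 in R 4.3.3, a mean per group over all 20 libraries and an intensity trend, and p-values were adjusted by Benjamini-Hochberg at 0.05. The script was tested on simulated data. The change of low genes is understated on this scale. Transcript lengths, shared stretches and exon overlaps came from GENCODE M21, and promoter sequences from RefSeq GRCm38.p6, matched by Entrez identifier. Replicates count as separate animals as far as the design text says so.

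Values per library are given for members past the threshold, the 3 members with the smallest p in each of 7 comparisons, and 12 fixed members; any other gene is given by group means or counts. Of these, 1 member that this rule names is not reported here. The members and lists were chosen with earlier results of these data known. Alternatives were pseudocounts (0.5, 10), filters (none, mean of 100 or more), median-ratio or quantile scaling, pool as a term, a replicate block, only the groups compared, robust variances with array weights, a long-minus-short covariate, leaving out control vehicle libraries 1 and 3, and leaving out each library.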

Additional observations from a re-analysis of the deposited data

Results flagged for a closer look

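Within-group spread was examined for 20 named members in 4 groups of 5 libraries, 80 groups in all, and 2 held a library whose gap to the nearest other library exceeded Dixon's critical value of 0.71 as a share of the range, both taken on the log2(value + 1) scale. Chance alone flags about 1 in 20 groups. Slc25a24, a calcium-dependent ATP-Mg/phosphate carrier, was 178.7 in control vehicle library 3, against 207 to 214 in the other libraries of the group (ratio 0.814). Slc25a26, the S-adenosylmethionine carrier, was 688 in knockout rapamycin library 4, against 556 to 584 in the others (ratio 0.764).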

How the results depend on the processing

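Of 44 results for named members, 1123 of 1148 alternative fits kept the direction, and 25 over 10 results did not. Part of these results were chosen by their small p in the same data, and many fits left out only 1 library. The count is therefore no measure of how firm a direction is. It leaves out Slc25a10, Slc25a26 and Slc25a38 under vehicle, which changed sign without control vehicle libraries 1 and 3. For knockout against control under vehicle, the long-minus-short covariate reversed Slc25a11 (0.036), Slc25a20 (0.18), Slc25a3 (0.017), Slc25a37 (-0.010), Slc25a4 (0.052) and Slc25a5 (0.25). In the same comparison robust variances with array weights reversed Slc25a20 (0.0028) and Slc25a25 (-0.0028), and leaving out control vehicle libraries 1 and 3 reversed Slc25a20 (0.10) and Slc25a5 (0.14). Slc25a37 was also reversed by median-ratio rescaling (-0.0018) and quantile normalization (-0.087). When each library was left out, Slc25a20 ranged from -0.21 to 0.0099 (without control vehicle library 3) and Slc25a37 from -0.049 (without control vehicle library 4) to 0.16.

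For rapamycin averaged over genotype, Slc25a20 was reversed by the covariate (0.055) and without control vehicle libraries 1 and 3 (0.064), and Slc25a4 by the covariate (0.10), robust variances (0.056) and without those libraries (0.11). When each library was left out, the ranges were -0.097 to 0.019 for Slc25a20, -0.086 to 0.037 for Slc25a4 and -0.097 to 0.0026 for Slc25a37, with the highest value of each without control vehicle library 3.

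The count of members called under rapamycin averaged over genotype was 2 with the covariate, where Slc25a28 joined at 0.38 (adjusted p = 0.0170 by limma), and 0 with the pool term, with the replicate block and without control vehicle libraries 1 and 3. Those fits called 328, 0, 5 and 4 of all 13548 genes, against 17 with the main settings. It ranged from 0 to 1 when each library was left out. For rapamycin in knockout hearts it was 2 with the covariate and with robust variances, where 234 and 58 of all genes were called, against 1. For knockout against control under vehicle it ranged from 0 to 3 when each library was left out, the 3 coming without library 5 of either group, where 3089 and 2565 of all genes were called, against 33. The other 160 of 181 fits of such counts gave the main count, which was 0 in every comparison but rapamycin averaged over genotype. In that comparison, 13 of 20 fits that left out 1 library and 4 of 11 other fits gave another count. The 160 are therefore no measure of how steady a call is. The cause of these changes was not tested.

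The interaction median of the members, 0.13, was 0.015 with the covariate and -0.015 without control vehicle libraries 1 and 3. Quantile normalization shifted the median of all genes by -0.11 for knockout against control under vehicle and by 0.12 for the interaction. Replicate numbers did not pair the libraries. Same-numbered libraries of 2 groups correlated between -0.51 and 0.43, at most 2 of 5 libraries correlated best with their own number, and the replicate block changed no call but that of Slc25a13 (-0.41, adjusted p = 0.0662 by limma). The lowest member, Slc25a27, rested on 8 to 31 implied reads, and its interval under vehicle ran from -0.28 to 0.91.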

Other observations

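Among the other carriers, some varied little between groups and some varied widely between libraries. Slc25a46, an outer-membrane protein of the family with a role in cristae and lipid exchange, was 2259 ± 119 in control vehicle, 2345 ± 177 in knockout vehicle, 2132 ± 183 in control rapamycin and 2182 ± 162 in knockout rapamycin (SD, n = 5). Slc25a15, the ornithine carrier known from the urea cycle of liver, was as steady, at 449.6 ± 41.1, 467 ± 31.3, 469 ± 46.8 and 441 ± 36.3 in the same order. Slc25a16, Slc25a36 (a pyrimidine nucleotide carrier) and Slc25a40 (the paralog of the glutathione carrier Slc25a39) also had no unadjusted p under 0.05 in any comparison. Slc25a40 was 214 ± 15.2 in control vehicle and 199 ± 24.8 in knockout vehicle, a difference of -0.11 (-0.39 to 0.17), or -0.09 without control vehicle libraries 1 and 3. Slc25a39 differed by -0.61 with all libraries, and by less without those libraries, as given above.

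The citrate carrier Slc25a1, which exports citrate for lipid synthesis, varied widely among libraries of 1 group, at 181 ± 57.7 in control vehicle and 175 ± 77.5 in knockout vehicle. Its difference under vehicle, -0.12, had an interval of -0.77 to 0.54 and was -0.07 without control vehicle libraries 1 and 3. The glutamate carrier Slc25a22 was 1299 ± 619 and 1550.0 ± 447 in the same groups, a difference of 0.34 (-0.26 to 0.94), or 0.04 without those libraries. The dicarboxylate carrier Slc25a10 was 536 ± 171 and 491 ± 79.2, a difference of -0.08 (-0.45 to 0.28), or 0.22 without those libraries. For these carriers differences of these sizes were within the spread between libraries.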
